A study of Mus musculus with 8 samples.

Results

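The genes described here are 46 genes of fatty acid oxidation, chosen by symbol from textbook roles, of 37583 gene rows counted in each library. These genes and the lists below were chosen with earlier results of these data known. The 46 comprise 10 genes of uptake and activation, 20 genes of the mitochondrial pathway, 11 peroxisomal genes and 5 genes of fatty acid release, storage and the fasting response. Every one of the 46 had a row, and all 46 passed the filter on low counts that left 15228 genes to be tested. Ketone body genes, none of which is among the 46, were examined apart as a list of 10.

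The libraries come from whole kidneys of mice with an inducible Tfap2b knockout, genotype b-actinCreERT2+TFAP2Bfl/fl, and from kidneys of control littermates labelled wildtype. Tfap2b codes for the transcription factor AP-2 beta, known in kidney for its role in distal tubules, and CreERT2 is a recombinase that acts once tamoxifen is given; the beta-actin promoter named with it is active in most cell types. The labels used here give no age, strain background, tamoxifen schedule or time after induction, and do not say whether the littermates carried Cre, floxed alleles or received tamoxifen. Each group held 4 RNA-seq libraries, with 13435113 to 17930347 gene counts per library. Nothing beyond the mention of mice says that each library is a separate animal, so the p-values measure the spread between these libraries.

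Whole-gene counts of the targeted gene ran against the labels. Tfap2b (ENSMUSG00000025927) was at 238, 266, 237 and 240.3 CPM (counts scaled to library size with TMM factors) in knockout libraries 1 to 4, and at 94.3, 105, 111 and 103 CPM in wildtype libraries 1 to 4. That is a log2 fold change of 1.25 ± 0.074 (SE) with an edgeR adjusted p of 4.18e-06. Such counts take in exons outside any deleted stretch and do not check the deletion. Libraries are therefore named by their labels, and a gene called higher or lower is so in the knockout-labelled group relative to the wildtype-labelled one.

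Fatty acid oxidation begins with uptake at the plasma membrane, binding by small carrier proteins and activation to acyl-CoA. Long chains enter mitochondria as acylcarnitines and are shortened in cycles of dehydrogenation, hydration, dehydrogenation and thiolysis, whereas very long, branched and dicarboxylic chains are first shortened in peroxisomes. The proximal tubule of the kidney draws most of its energy from this pathway, many of whose genes are targets of the nuclear receptor PPAR alpha, which is most active in fasting.

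Segment and other markers moved between the groups, and their part in the results below was not tested. Of 20 proximal tubule markers, 7 fell, 0 rose and their summed level was 29261 to 39752 CPM in the libraries labelled knockout and 39036 to 46935 CPM in those labelled wildtype. Of 10 thick ascending limb markers 8 fell, and of 10 distal convoluted tubule markers 9 fell, while 10 of 12 macrophage markers rose. Of 11 collecting duct markers tested 10 rose, with summed levels of 2401 to 3352 CPM against 1384 to 1715 CPM. In bulk tissue, fewer cells of a type and less RNA per cell cannot be told apart. A score of clock genes (mean log2 level of clock output genes minus that of clock activators) was 0.634, -1.28, -1.76 and -0.788 in knockout libraries 1 to 4 and -0.0469, 1.1, 2.43 and 1.54 in wildtype libraries 1 to 4. That difference gave an exact two-sided permutation p of 0.0571, and wildtype 1 and knockout 1 lay in each other's range. None of 12 white fat markers passed edgeR's test, DESeq2 and limma voom each called 0, and 0 had an unadjusted p under 0.05. They had summed levels of 372 to 1440 CPM against 264 to 1063 CPM, highest in knockout 2 and wildtype 1. Brown fat markers summed to 173 to 470.1 CPM against 222 to 317 CPM. Of 9 tested, 1 rose (Cox7a1) and 1 fell (Ppargc1a). Zic1 was at 0 in every library, whereas Ucp1 was at 10.1, 198, 21.8 and 93.3 CPM in knockout libraries 1 to 4. In wildtype libraries 1 to 4 Ucp1 was at 66.0, 33.8, 42.4 and 39.1 CPM. Muscle markers summed to 18.5 to 34.2 CPM over all libraries. Adrenal markers summed to 242 CPM in knockout 4 and to at most 8.89 CPM in the other libraries.

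The 46 genes did not share a direction. In edgeR's quasi-likelihood test at an adjusted p under 0.05, 5 rose (10.9%, against 6.23% of all genes tested), 3 fell (6.52%, against 5.70%) and 38 did not pass. The share that changed either way among all genes was 11.9%. Rising were Fabp1, Acsl4, Acaa1b, Acot2 and Plin2, and falling were Fabp3, Acad10 and Echs1. The median log2 fold change was -0.07 over the 46, against 0.00 over all genes tested, with 20 values above 0 and 26 below. Groups did not overlap in 11 of the 46, while 18.5% of all genes had such groups; the knockout libraries were higher in 4 (8.70%, against 9.42% of all genes) and lower in 7 (15.2%, against 9.05%). Only Fabp1 both passed and changed at least 2-fold, as 3.27% of all genes did. The shares called in edgeR are close to those of all genes and are no result about the 46 as a whole. At an unadjusted edgeR p under 0.05, 12 of the 46 were lower (26.1%, against 13.7% of all genes). At that threshold 9 were higher, as were 2048 of all 15228 genes. DESeq2 called 8 higher and 8 lower, against 1191 and 1226 of all 15228 genes. The steps of the pathway are described apart.

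**Figure D1:**
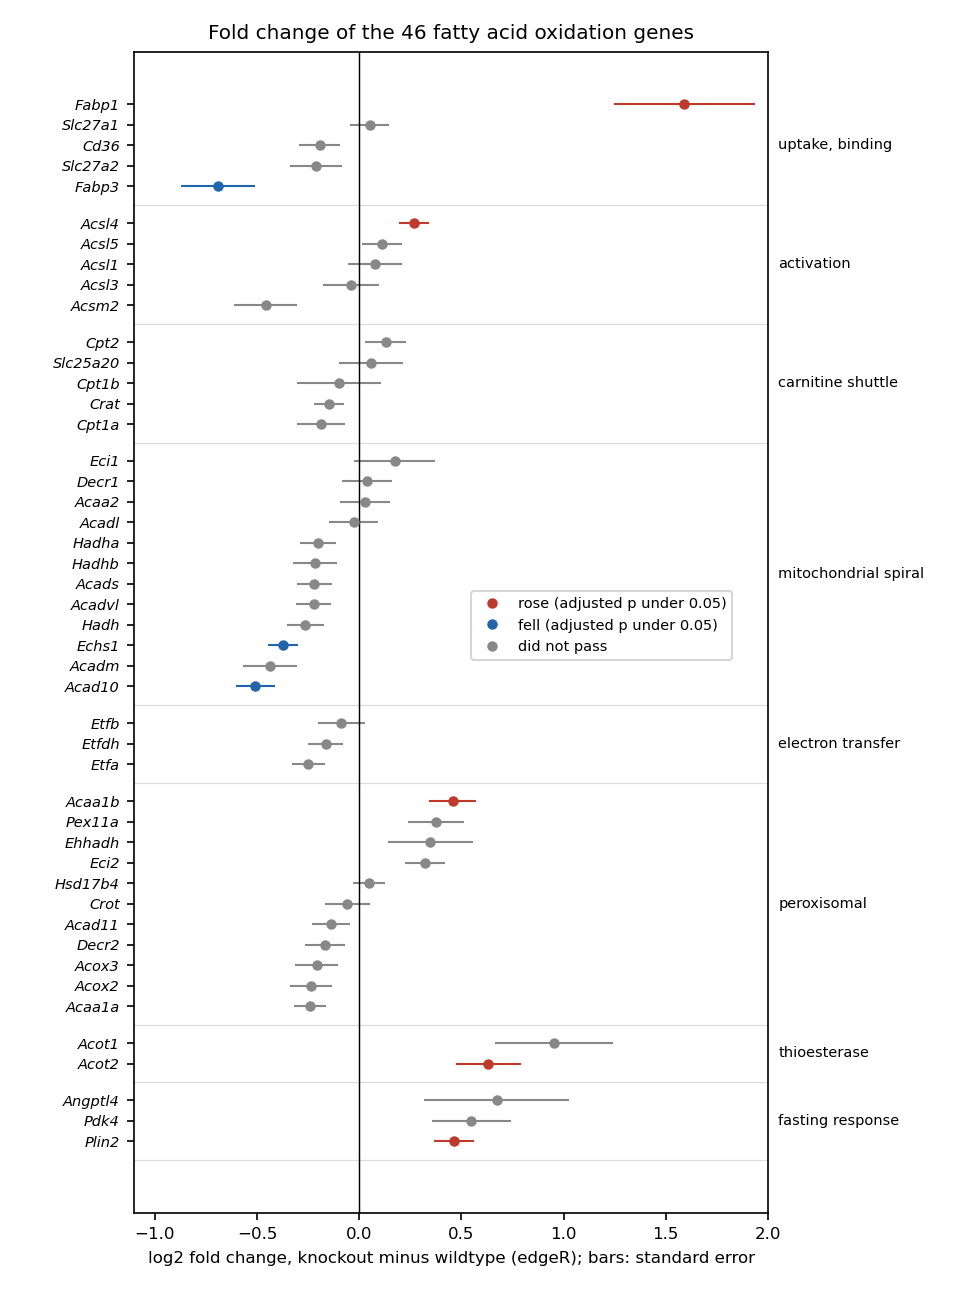
Log2 fold change of each of the 46 genes, libraries labelled knockout minus wildtype, with its standard error as a bar, grouped by step of the pathway; red points rose and blue points fell at an edgeR adjusted p under 0.05, and grey points did not pass. Points of the mitochondrial genes lie mostly below 0 (15 of 20, or 12 of 20 with library totals in place of TMM factors), and all 5 thioesterase and fasting response genes lie above 0.

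These counts shifted when single libraries were left out, and so did the calls over all genes. The count of rising genes was 8 without knockout 1, 1 without knockout 2, 3 without knockout 3 or 4, and 2 without any 1 of the wildtype libraries. The count of falling genes was 6 without knockout 3 and 2 to 4 without any other library. Over all genes, of which 949 rose and 868 fell with all libraries, 588 rose and 488 fell without knockout 2. Without knockout 1, 977 rose and 963 fell, and without any other library 659 to 896 rose and 517 to 824 fell. With library totals in place of TMM factors, which moved the median of all genes from 0.00 to 0.11, 8 rose and 2 fell, so that 80% of the calls were upward in place of 62.5%. Without knockout 1 and 4 together 7 rose and 1 fell. Without knockout 2 and wildtype 1 together, the libraries with the most white fat marker RNA in each group (chosen after seeing the data), 0 rose and 2 fell, Acad10 and Echs1. Calls over all genes dropped too, from 949 higher and 868 lower to 427 and 410 in this last fit. They were 502 and 410 without knockout 1 and 4. The part of fat RNA in the lost calls was not tested.

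Levels set per kb of exon differ widely among the genes. In the wildtype libraries the highest mean was that of Slc27a2, at 1089 CPM per kb, followed by Etfb at 526, Acadm at 498 and Ehhadh at 421 CPM per kb. The lowest was that of Cpt1b, the muscle form of carnitine palmitoyltransferase 1, at 0.742 CPM per kb, against 68.6 CPM per kb for Cpt1a, the liver form.

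Promoter windows are shown for the 5 genes on which the comparisons of paralogs and partners below turn: the carrier proteins Fabp1 and Fabp3, which moved in opposite directions, the thiolase copies Acaa1a and Acaa1b, of which Acaa1b passed and Acaa1a did not, and Hadha, which shares its window with Hadhb. Each runs from 250 bases before to 50 bases after the RefSeq start site, 5′ to 3′ on the gene's strand, in build GRCm38.p6. Such windows were matched for 40 of the 46 genes. In Fabp1 (chr6:71199629-71199928, plus strand) capitals mark a match to the element bound by PPAR with its partner RXR, AGGTCA repeated after a spacer of 1 base, with 1 mismatch, on the opposite strand, 67 to 55 bases before the start. In Hadha (chr5:30154931-30155230, minus strand) capitals mark the 228 bases (chr5:30155003-30155230) that also belong to the window of Hadhb, which is read in the other direction. The windows of Fabp3 (chr4:130308488-130308787, plus strand), Acaa1a (chr9:119341044-119341343, plus strand) and Acaa1b (chr9:119157044-119157343, minus strand) hold no match and stand in lower case.
Fabp1: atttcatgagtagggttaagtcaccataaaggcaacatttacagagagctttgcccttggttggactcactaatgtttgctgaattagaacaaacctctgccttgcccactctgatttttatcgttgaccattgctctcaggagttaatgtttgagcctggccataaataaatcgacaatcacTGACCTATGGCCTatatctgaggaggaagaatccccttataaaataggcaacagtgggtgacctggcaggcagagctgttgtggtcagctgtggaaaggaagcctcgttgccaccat
Fabp3: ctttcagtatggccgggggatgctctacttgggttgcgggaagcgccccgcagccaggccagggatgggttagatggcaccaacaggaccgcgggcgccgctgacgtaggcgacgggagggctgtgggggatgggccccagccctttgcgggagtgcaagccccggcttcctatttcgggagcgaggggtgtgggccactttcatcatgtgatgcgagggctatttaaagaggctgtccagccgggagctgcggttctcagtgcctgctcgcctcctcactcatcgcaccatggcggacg
Acaa1a: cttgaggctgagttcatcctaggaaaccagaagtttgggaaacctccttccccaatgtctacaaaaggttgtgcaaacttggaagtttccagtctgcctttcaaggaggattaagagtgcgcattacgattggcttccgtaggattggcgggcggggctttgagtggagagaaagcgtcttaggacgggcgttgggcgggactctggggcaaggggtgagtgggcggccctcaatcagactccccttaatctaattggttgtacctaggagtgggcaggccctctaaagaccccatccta
Acaa1b: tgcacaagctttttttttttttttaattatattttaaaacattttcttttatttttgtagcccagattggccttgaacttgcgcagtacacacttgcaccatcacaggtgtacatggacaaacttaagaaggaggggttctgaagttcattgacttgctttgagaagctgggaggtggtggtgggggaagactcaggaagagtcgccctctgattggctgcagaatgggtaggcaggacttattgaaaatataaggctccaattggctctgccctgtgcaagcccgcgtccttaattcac
Hadha: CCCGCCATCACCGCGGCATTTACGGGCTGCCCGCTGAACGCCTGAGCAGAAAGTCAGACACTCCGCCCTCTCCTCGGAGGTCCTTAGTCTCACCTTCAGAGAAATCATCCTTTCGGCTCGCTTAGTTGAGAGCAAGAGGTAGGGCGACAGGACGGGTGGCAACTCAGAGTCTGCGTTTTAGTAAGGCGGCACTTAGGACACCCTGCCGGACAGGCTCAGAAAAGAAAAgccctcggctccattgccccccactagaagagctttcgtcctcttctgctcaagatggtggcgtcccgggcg

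The element was searched on both strands with at most 1 mismatch over AGGTCA, 1 base of any kind and AGGTCA again. Of the 40 genes with at least 1 window, 1 (2.5%) held the element, Fabp1, against 174 of 27025 genes with a window (0.644%). No match says only that these letters are not in the window of 300 bases.

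Of the 10 genes of uptake and activation, 2 rose (20%, against 6.23% of all genes), 1 fell (10%, against 5.70%) and 7 did not pass. The median log2 fold change was 0.00 (0.11 with library totals). The 2 cytosolic carrier proteins of this group changed in opposite directions.

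Fabp1, the liver-type fatty acid binding protein that shuttles long chains in the cytosol, was at 10.5, 21.01, 21.4 and 30.5 CPM in knockout libraries 1 to 4 and at 9.72, 6.5, 7.28 and 4.25 CPM in wildtype libraries 1 to 4. Every knockout library lay above every wildtype library, although knockout 1 came close to wildtype 1. Its counts were 3.01-fold higher (1.59 ± 0.34 (SE) on the log2 scale, edgeR adjusted p = 0.0209). The call was lost without knockout 2 (adjusted p = 0.0589), wildtype 2 (0.0644) or wildtype 3 (0.0616) and with no filter on low counts (0.0658). In a fit that also held the clock score (clock-adjusted below), the difference came to 0.90 on the log2 scale, with an adjusted p of 0.345. Over all genes that fit called 519 higher and 249 lower, against 949 and 868 without the clock score.

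Fabp3, the heart-type binding protein, was at 12.2, 15.04, 8.5 and 16.2 CPM in knockout libraries 1 to 4 and at 20.1, 22.1, 23.6 and 17.9 CPM in wildtype libraries 1 to 4. The groups did not overlap, with knockout 4 just under wildtype 4 and knockout 3 lowest. It was 1.62-fold lower (-0.69 ± 0.18 on the log2 scale, edgeR adjusted p = 0.0319). Its call was lost without knockout 1 (adjusted p = 0.0683), wildtype 1 (0.0627), wildtype 2 (0.0747) or wildtype 3 (0.0837), with library totals only (0.0673) and in the clock-adjusted fit (0.341). Its value on the log2 scale was -0.58 with library totals and -0.53 ± 0.28 in the clock-adjusted fit. Per kb of exon, mean levels went from 12.5 to 37.7 CPM per kb for Fabp1 and from 25.4 to 15.8 CPM per kb for Fabp3, wildtype to knockout, so that the more abundant of the pair differed between the groups.

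The other uptake genes did not pass. Slc27a2, a very long chain acyl-CoA synthetase and transporter of the proximal straight tubule, ranged from 3071 to 4041 CPM in the knockout libraries and from 3676 to 5000 CPM in the wildtype libraries (log2 fold change -0.21, edgeR adjusted p = 0.318). Cd36, the scavenger receptor that takes up fatty acids, stood at -0.19 ± 0.10 on the log2 scale (adjusted p = 0.242), and the transporter Slc27a1 at 0.05 ± 0.097 (adjusted p = 0.778). In all 3 the groups overlapped.

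Among the acyl-CoA synthetases, Acsl4, which prefers arachidonate, was at 107, 109.98, 109.7 and 108 CPM in knockout libraries 1 to 4 and at 90.3, 100.02, 79.3 and 91.2 CPM in wildtype libraries 1 to 4. The knockout libraries were tightly grouped and all lay above the wildtype libraries. The difference was small, 1.2-fold (0.27 ± 0.074 on the log2 scale, edgeR adjusted p = 0.0386). It lost its call without knockout 2 (adjusted p = 0.0955), knockout 3 (0.0734), knockout 4 (0.0832), wildtype 1 (0.075), wildtype 3 (0.0988) or wildtype 4 (0.0774), and in the clock-adjusted fit (0.415, at 0.17 ± 0.11 on the log2 scale).

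Acsm2, a medium-chain synthetase of the kidney, was at 952, 614, 1108 and 775 CPM in knockout libraries 1 to 4 and at 1124, 1248, 1169 and 1195 CPM in wildtype libraries 1 to 4. All knockout libraries were below all wildtype libraries, knockout 3 by little. The log2 fold change of -0.46 ± 0.15 did not pass (edgeR adjusted p = 0.0817), and it passed without knockout 3 (adjusted p = 0.0222) and with DESeq2 (0.0247). Acsl1, Acsl3 and Acsl5, synthetases of other chain preference or location, had log2 fold changes of 0.08, -0.04 and 0.11, with adjusted p-values of 0.749, 0.879 and 0.513 and overlapping groups.

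The mitochondrial genes lay mostly lower in the libraries labelled knockout. Of 20, 2 fell (10%, against 5.70% of all genes) and 0 rose, with 8 lower and 0 higher at an unadjusted p under 0.05 in edgeR (40% lower, against 13.7% of all genes). DESeq2 called 5 lower and 0 higher, and limma voom 2 lower and 0 higher. Over all 15228 genes DESeq2 called 1226 lower and 1191 higher, and limma voom 900 lower and 928 higher. The median log2 fold change was -0.18, with 15 of 20 below 0 (-0.07 and 12 of 20 with library totals, and -0.29 and 19 of 20 in the clock-adjusted fit). In 5 genes (25%, against 9.05%) every knockout library lay below every wildtype library. The proximal tubule marker score was lower in every knockout library than in any wildtype library, and lowest in knockout 2. The mean of the 20 mitochondrial genes was lowest in knockout 1, and that of wildtype 2 lay below those of knockout 2, 3 and 4. The part of these markers in the lower values was not tested.

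In the carnitine shuttle, which carries long chains across the inner membrane, none of 5 genes passed in edgeR, and none reached an unadjusted p under 0.05 or was called by DESeq2 or limma voom. Cpt1a, which catalyses the rate-controlling step of entry, was at 479.9, 390.00, 543 and 427 CPM in knockout libraries 1 to 4 and at 445, 513, 598 and 539.8 CPM in wildtype libraries 1 to 4. The groups overlapped, and the log2 fold change was -0.19 ± 0.12 (edgeR adjusted p = 0.343). Cpt2, which returns acylcarnitine to acyl-CoA, stood at 0.13 ± 0.10 (adjusted p = 0.45), and the carnitine-acylcarnitine carrier Slc25a20 at 0.06 ± 0.16 (adjusted p = 0.855). Cpt1b, at 1.90 to 3.24 CPM over all 8 libraries, had -0.10 ± 0.21 (adjusted p = 0.798). Crat, which exchanges short chains between carnitine and CoA, showed knockout libraries at 179, 197, 196 and 195 CPM and wildtype libraries at 203, 199, 228 and 220.1 CPM. These did not overlap, though knockout 2 and wildtype 2 were nearly level. The log2 fold change of -0.15 ± 0.071 did not pass, with an adjusted p of 0.21.

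Acyl-CoA dehydrogenases take the first step of each cycle and differ in chain length. Acad10, a member of this family with a less settled substrate, was at 89.03, 65.6, 88.7 and 77.1 CPM in knockout libraries 1 to 4 and at 106, 119, 112 and 118 CPM in wildtype libraries 1 to 4. The groups were apart, with knockout 2 lowest. Acad10 was 1.42-fold lower (-0.51 ± 0.097 on the log2 scale, edgeR adjusted p = 0.00701). It kept its call without any 1 library, and lost it in the clock-adjusted fit, at -0.41 ± 0.14 on the log2 scale (adjusted p = 0.139).

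Acadm, the medium-chain dehydrogenase, was at 1261, 1354, 1601 and 1538 CPM in knockout libraries 1 to 4 and at 1937, 1641, 1767 and 2449 CPM in wildtype libraries 1 to 4. Again no knockout library reached the lowest wildtype library, and wildtype 4 was far above the other wildtype libraries. The log2 fold change of -0.44 ± 0.13 missed the threshold (edgeR adjusted p = 0.0543). It passed without wildtype 2 (adjusted p = 0.0439), with DESeq2 (0.00914) and with no filter on low counts (0.032). The short-chain Acads and very long chain Acadvl had log2 fold changes of -0.22 and -0.22 (adjusted p of 0.123 and 0.121), and the long-chain Acadl was near 0, at -0.03 ± 0.12 (adjusted p = 0.912).

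Echs1, the short-chain enoyl-CoA hydratase that adds water in the next step, was at 263, 296, 305 and 289 CPM in knockout libraries 1 to 4 and at 389, 361, 359.9 and 379.7 CPM in wildtype libraries 1 to 4. The highest knockout library was clearly below the lowest wildtype library. It was 1.29-fold lower (-0.37 ± 0.073 on the log2 scale, edgeR adjusted p = 0.00822). The call held without any 1 library and in the clock-adjusted fit (adjusted p = 0.0196), and was lost without knockout libraries 1 and 4 together (0.0852).

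**Figure D2:**
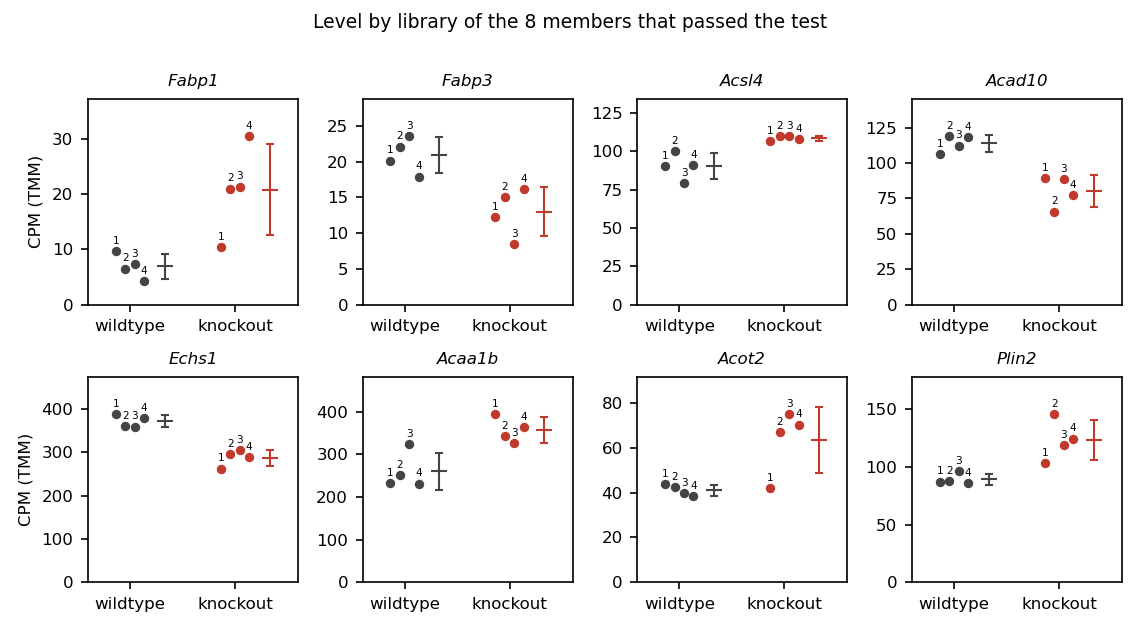
CPM in each library, on axes that start at 0, for the 8 genes that passed; numbered points are single libraries, and bars give the group mean and SD (n = 4). Acad10, Echs1 and Plin2 show groups that stand apart, whereas in Acot2 knockout 1 lies among the wildtype libraries.

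For the remaining steps, Hadh, the short-chain hydroxyacyl-CoA dehydrogenase, had -0.26 ± 0.090 on the log2 scale (edgeR adjusted p = 0.0817), and passed without knockout 3 (adjusted p = 0.0418) and with DESeq2 (0.0245). Hadha and Hadhb, the subunits of the trifunctional protein that handles the later steps for long chains, stood at -0.20 ± 0.088 and -0.22 ± 0.11 (adjusted p of 0.17 and 0.228). Their log2 fold changes were close to each other, and neither passed. Mean levels in knockout and wildtype libraries were 379 and 436 CPM for Hadha, and 47.9 and 55.7 CPM for Hadhb. The part of their shared promoter bases, printed above, in these values was not tested. Hadhb passed in the clock-adjusted fit, at -0.51 on the log2 scale (adjusted p = 0.0382). The thiolase Acaa2 and the auxiliary enzymes of unsaturated chains Decr1 and Eci1 lay at or above 0, at 0.03, 0.04 and 0.17, with adjusted p-values of 0.909, 0.87 and 0.621.

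Electron transfer flavoprotein passes electrons from the dehydrogenases to the respiratory chain. Its alpha subunit Etfa was at 336, 393, 404 and 379 CPM in knockout libraries 1 to 4 and at 482, 439, 450.4 and 427 CPM in wildtype libraries 1 to 4. Groups did not overlap, with knockout 1 lowest and wildtype 1 highest. The log2 fold change of -0.25 ± 0.081 did not pass (edgeR adjusted p = 0.0704), and DESeq2 called it (adjusted p = 0.0137). Its partner Etfb had -0.09 ± 0.11 and the dehydrogenase Etfdh -0.16 ± 0.085 (adjusted p of 0.668 and 0.246), both with overlapping groups.

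The peroxisomal genes did not share a direction. Of 11, 1 rose (9.09%, against 6.23% of all genes) and 0 fell in edgeR. At an unadjusted edgeR p under 0.05, 3 of the 11 were higher, as were 2048 of all 15228 genes. At that threshold 2 of the 11 were lower (18.2%, against 13.7% of all genes). DESeq2 called 2 higher and 1 lower, and limma voom 1 higher and 0 lower. The median log2 fold change was -0.06, with 5 above 0 and 6 below (0.05, 6 and 5 with library totals).

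Acaa1b, a copy of peroxisomal thiolase that is abundant in kidney and liver, was at 395, 343, 326 and 364 CPM in knockout libraries 1 to 4 and at 233, 252, 324 and 231 CPM in wildtype libraries 1 to 4. Knockout 3 lay only just above wildtype 3, and the other libraries were well apart. It was 1.37-fold higher (0.46 ± 0.11 on the log2 scale, edgeR adjusted p = 0.0253). The call was lost without knockout 2 (adjusted p = 0.0513), knockout 4 (0.0648), wildtype 1 (0.0679), wildtype 2 (0.0645) or wildtype 4 (0.0705), and it was kept in the clock-adjusted fit (0.0101).

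Its near copy Acaa1a was at 125, 117, 111 and 119.6 CPM in knockout libraries 1 to 4 and at 138, 124, 157 and 140.1 CPM in wildtype libraries 1 to 4. The groups touched only through knockout 1 and wildtype 2. The log2 fold change was -0.24 ± 0.080 (edgeR adjusted p = 0.0741), and it passed without wildtype 2 (adjusted p = 0.0413) and with DESeq2 (0.0437). Of the 50-base stretches of the exons of Acaa1a, 26.7% also occur in Acaa1b, and 35.5% of those of Acaa1b occur in Acaa1a. Reads that fit both copies equally stayed outside the gene counts, so each count rests on the stretches in which the copies differ.

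Ehhadh, the peroxisomal bifunctional enzyme and a classical target of PPAR alpha, was at 1127, 1419, 2015 and 1834 CPM in knockout libraries 1 to 4 and at 1237, 896, 1335 and 1557 CPM in wildtype libraries 1 to 4. The groups overlapped, with knockout 3 and 4 above every wildtype library and knockout 1 below 3 of them. Its log2 fold change was 0.35 ± 0.21 (edgeR adjusted p = 0.318). Hsd17b4, the other bifunctional enzyme, was at 0.05 ± 0.078 (adjusted p = 0.749).

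Eci2, an isomerase of unsaturated chains, was at 99.4, 133, 136 and 128 CPM in knockout libraries 1 to 4 and at 107, 90.96, 99.8 and 99.7 CPM in wildtype libraries 1 to 4. Only knockout 1 lay within the wildtype range. With all libraries the log2 fold change of 0.32 ± 0.099 missed the threshold (edgeR adjusted p = 0.058), and without knockout 1 it passed (adjusted p = 0.00494), as it did with DESeq2 (0.0278), library totals (0.0136), upper quartile factors (0.0356) and no filter (0.043). Pex11a, which drives peroxisome division, showed the same dependence, at 0.38 ± 0.14 (adjusted p = 0.109) with all libraries and an adjusted p of 0.00978 without knockout 1.

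The oxidases of branched chains Acox2 and Acox3 had log2 fold changes of -0.23 and -0.21 (edgeR adjusted p of 0.165 and 0.228), and Acox3 passed without knockout 3 (adjusted p = 0.0361). Crot, which makes medium-chain acylcarnitines for export from the peroxisome, was at -0.06, the dehydrogenase Acad11 at -0.14 and the reductase Decr2 at -0.17. Their adjusted p-values were 0.774, 0.37 and 0.298, and the groups overlapped in each.

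**Figure D3:**
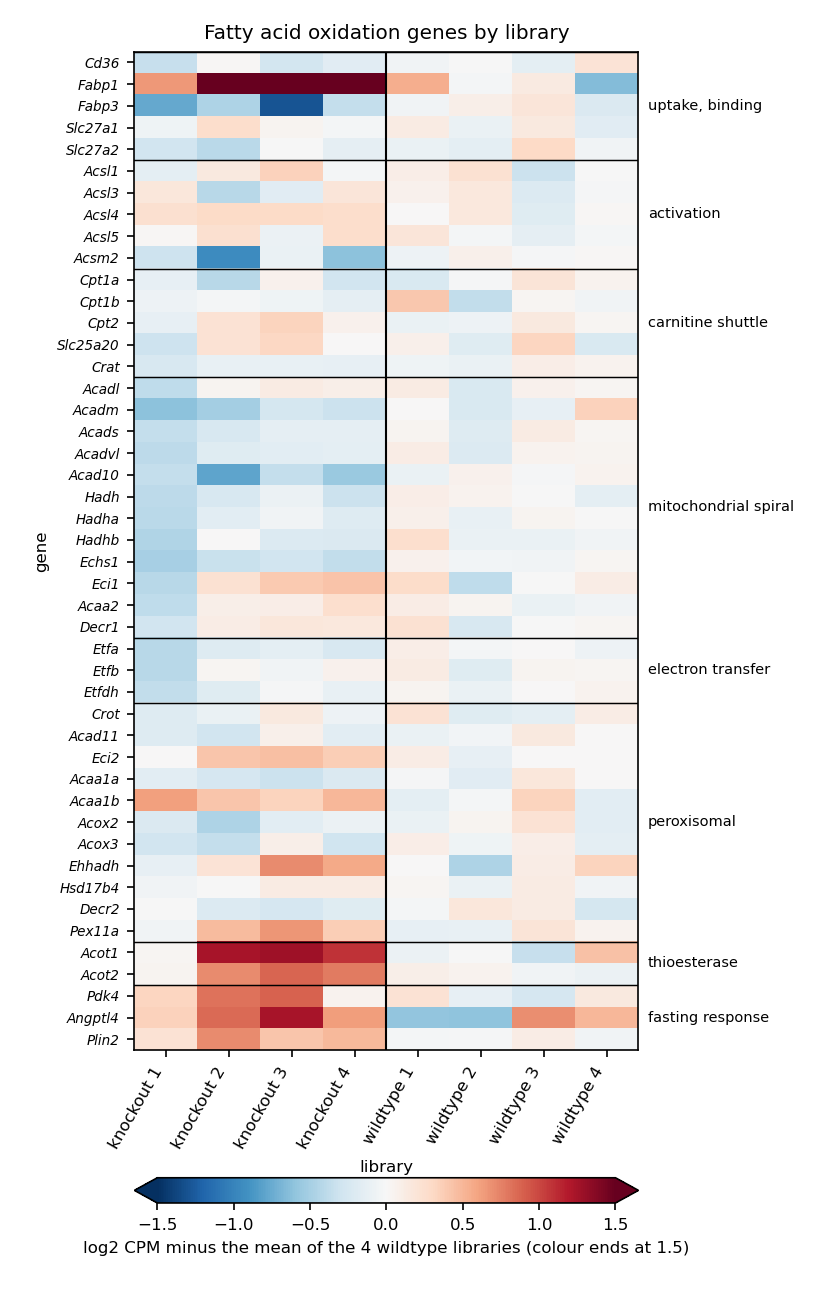
Log2 level of each gene in each library relative to its wildtype mean, in order of pathway step; columns are the 8 libraries. Knockout 1 is the lowest of the 4 knockout libraries for 31 of the 46 genes and for 17 of the 20 mitochondrial genes.

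The 5 genes of acyl-CoA release, storage and the fasting response were all higher on average in the libraries labelled knockout, and 2 of them rose (40%, against 6.23% of all genes). None fell in edgeR. At an unadjusted edgeR p under 0.05, 4 were higher and 0 lower, while 2048 of all 15228 genes were higher. DESeq2 called 4 higher and 0 lower, and limma voom 3 higher and 0 lower. Over all genes DESeq2 called 1191 higher and limma voom 928. The median log2 fold change was 0.63, and 0.26 in the clock-adjusted fit, with all 5 still above 0.

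Plin2, which coats lipid droplets, was at 104, 146, 119 and 125 CPM in knockout libraries 1 to 4 and at 87.2, 87.97, 96.3 and 86.1 CPM in wildtype libraries 1 to 4. Every knockout library was above every wildtype library. It was 1.38-fold higher (0.46 ± 0.097 on the log2 scale, edgeR adjusted p = 0.0111). It kept its call without any 1 library, and lost it in the clock-adjusted fit, at 0.38 ± 0.15 on the log2 scale (adjusted p = 0.194), and without knockout 2 and wildtype 1 together (0.0569).

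Acot2, a mitochondrial thioesterase that frees fatty acids from CoA, was at 42.03, 66.8, 75.05 and 70.3 CPM in knockout libraries 1 to 4 and at 43.7, 42.4, 39.6 and 38.4 CPM in wildtype libraries 1 to 4. Knockout 1 lay within the wildtype range and the other 3 well above it. It was 1.55-fold higher (0.63 ± 0.16 on the log2 scale, edgeR adjusted p = 0.0298). The call was lost without knockout 2 (adjusted p = 0.0853), knockout 3 (0.0572), knockout 4 (0.0803), wildtype 1 (0.0617), wildtype 2 (0.0647), wildtype 3 (0.0788) or wildtype 4 (0.0749). In the clock-adjusted fit its log2 fold change was 0.18 (adjusted p = 0.622).

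Acot1, the cytosolic copy, was at 109, 249.7, 257 and 225 CPM in knockout libraries 1 to 4 and at 100.3, 106, 83.4 and 144 CPM in wildtype libraries 1 to 4. As in Acot2, knockout 1 lay among the wildtype libraries. The log2 fold change of 0.95 ± 0.29 did not pass (edgeR adjusted p = 0.0744), whereas it was 1.17 without knockout 1 (adjusted p = 0.00302) and passed with DESeq2 (0.0214), limma voom (0.0488) and library totals (0.047). The copies share 23.5% of the 50-base stretches of Acot1 and 24.5% of those of Acot2, and reads that fit both equally stayed outside the counts.

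Pdk4, the kinase that shuts pyruvate out of the citric acid cycle in fasting, was at 74.7, 104, 110.5 and 61.7 CPM in knockout libraries 1 to 4 and at 69.4, 54.9, 50.2 and 66.1 CPM in wildtype libraries 1 to 4. Knockout 1, 2 and 3 were above all wildtype libraries, and knockout 4 was not. It had 0.55 ± 0.19 on the log2 scale (edgeR adjusted p = 0.104), passed without knockout 4 (adjusted p = 0.0327) and was called by DESeq2 (0.0233). Angptl4, a secreted inhibitor of lipoprotein lipase that rises in fasting, ranged from 41.0 to 76.1 CPM against 21.3 to 52.3 CPM, with 0.67 ± 0.35 on the log2 scale (adjusted p = 0.276).

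Means over the steps show how the libraries differ within a group. Relative to the wildtype mean, the 20 mitochondrial genes averaged -0.35, -0.12, -0.02 and -0.10 on the log2 scale in knockout libraries 1 to 4, and 0.08, -0.13, 0.04 and 0.01 in wildtype libraries 1 to 4. Wildtype 2 thus reached as low as knockout 2. The 5 thioesterase and fasting response genes averaged 0.19, 0.86, 0.93 and 0.60 in knockout libraries 1 to 4 and -0.08, -0.14, 0.03 and 0.19 in wildtype libraries 1 to 4. Knockout 1, lowest of its group in both means, also had the highest clock score of its group. Its macrophage markers summed to 659 CPM, against 416, 388 and 462 CPM in knockout libraries 2 to 4. The part of the clock or of macrophage RNA in these means was not tested.

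**Figure D4:**
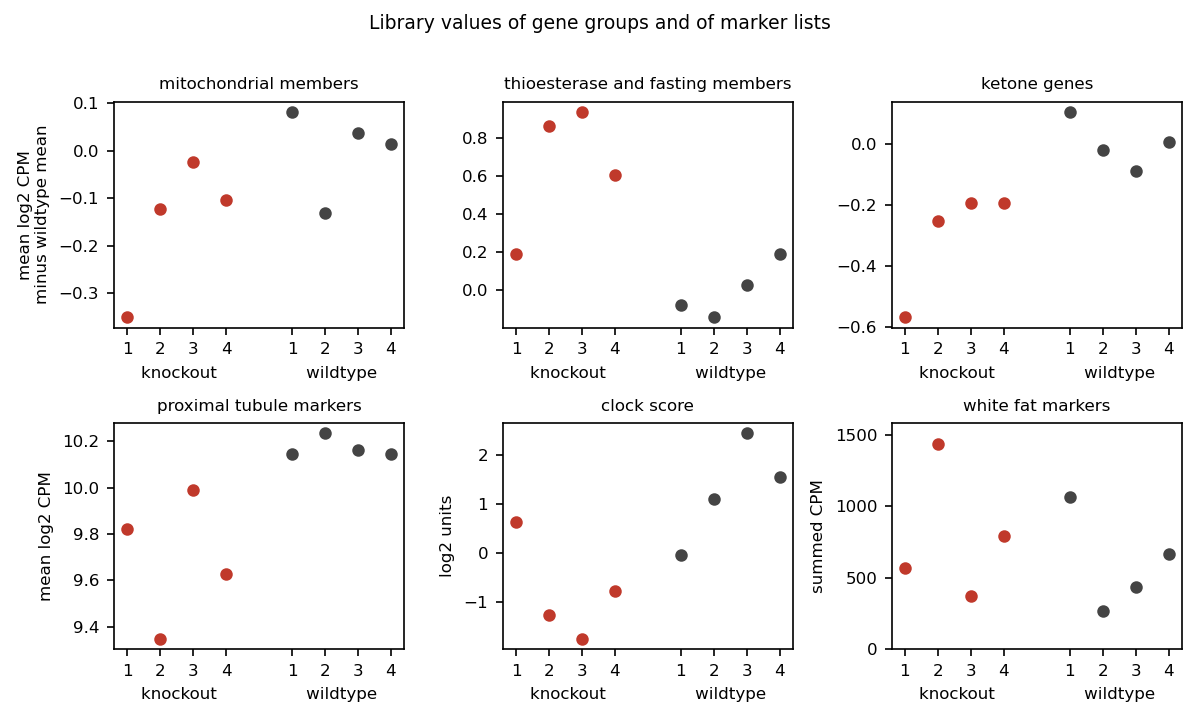
Values of each of the 8 libraries, by label and number: mean log2 level of the mitochondrial, thioesterase and fasting, and ketone genes relative to the wildtype mean, mean log2 CPM of proximal tubule markers, clock score, and summed CPM of white fat markers. Knockout 1 stands at a clock score of 0.634, above wildtype 1 at -0.0469, and the proximal tubule score runs from 9.35 to 9.99 in the knockout libraries and from 10.1 to 10.2 in the wildtype libraries.

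Most ketone body genes were lower in the libraries labelled knockout, among them the main enzymes of ketone body use. Of 10, 6 fell (60%, against 5.70% of all genes) and 0 rose in edgeR, with 8 lower and 0 higher at an unadjusted p under 0.05 (80% lower, against 13.7% of all genes). DESeq2 and limma voom each called 6 lower and 0 higher. The median log2 fold change was -0.46.

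Oxct1, the enzyme that activates acetoacetate and so commits ketone bodies to oxidation, was at 1548, 1257, 1485 and 1369 CPM in knockout libraries 1 to 4 and at 2162, 2309, 2428 and 2434 CPM in wildtype libraries 1 to 4. The groups were far apart, and it was 1.65-fold lower (-0.72 ± 0.093 on the log2 scale, edgeR adjusted p = 0.000893). Acat1, the thiolase that splits acetoacetyl-CoA in mitochondria, was at 454, 457, 519 and 485 CPM against 643, 648, 635 and 661 CPM. It was 1.35-fold lower (adjusted p = 0.00376), again with no overlap. Bdh1, which interconverts hydroxybutyrate and acetoacetate, was 1.47-fold lower (-0.56 ± 0.098, adjusted p = 0.00458), with knockout libraries at 192 to 230.4 CPM and wildtype libraries at 267 to 336 CPM.

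The monocarboxylate transporter Slc16a7, which carries ketone bodies and pyruvate, was at 105, 95.2, 95.7 and 91.5 CPM in knockout libraries 1 to 4 and at 161, 187, 188 and 211 CPM in wildtype libraries 1 to 4. The groups were apart, and it was 1.93-fold lower (-0.95 ± 0.087, edgeR adjusted p = 8.94e-05). Bdh2, a cytosolic dehydrogenase, was 1.41-fold lower (adjusted p = 0.0157), a call lost without knockout 4 (adjusted p = 0.0517). Hmgcll1, a lyase at 2.63 to 5.63 CPM over all libraries, was 1.77-fold lower (adjusted p = 0.00791).

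The cytosolic thiolase Acat2 had a log2 fold change of -0.18 ± 0.074 (edgeR adjusted p = 0.147). The transporter Slc16a1 was at 32.8, 83.2, 82.6 and 59.8 CPM in knockout libraries 1 to 4 and at 71.6, 54.6, 19.7 and 30.3 CPM in wildtype libraries 1 to 4. It spread widely within both groups, which overlapped, and its log2 fold change of 0.56 ± 0.47 did not pass (adjusted p = 0.506). Thick ascending limb markers summed to 7209 to 8167 CPM in the libraries labelled knockout and to 13397 to 16156 CPM in those labelled wildtype, beside the lower proximal tubule markers given above, and their part in the lower ketone genes was not tested. Under the clock-adjusted fit 3 of the 10 fell, while the median was -0.51 with 10 of 10 below 0 (8 of 10 without the clock score).

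**Figure D5:**
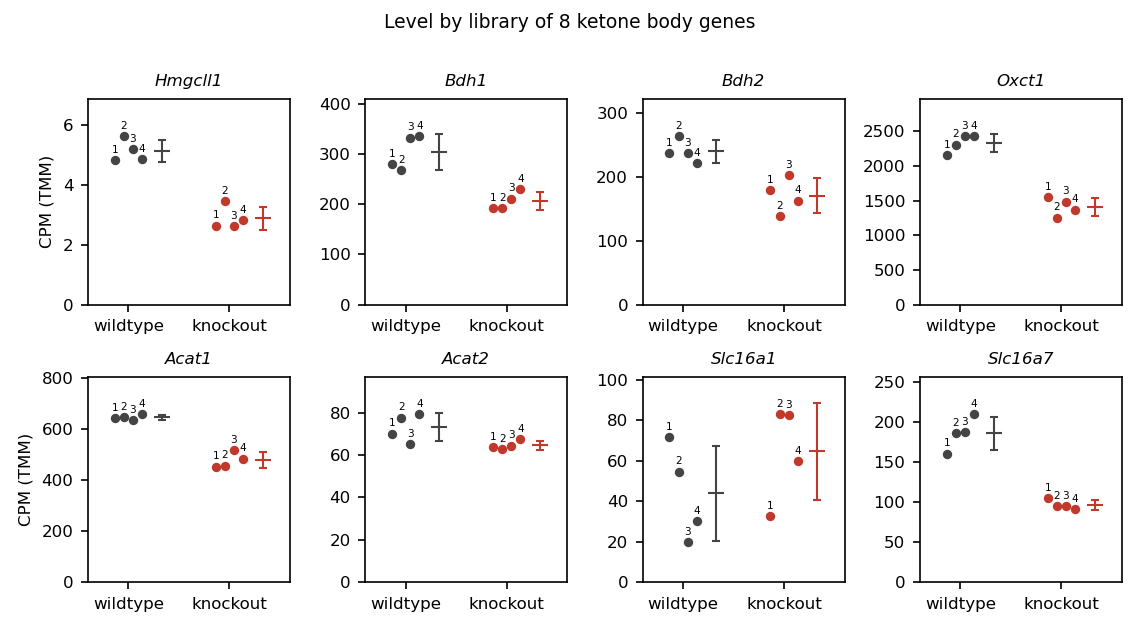
CPM of 8 ketone body genes in each library, on axes that start at 0; numbered points are single libraries, and bars give the group mean and SD (n = 4). Oxct1, Acat1, Bdh1, Bdh2, Hmgcll1 and Slc16a7 show separate groups, and Slc16a1 spreads from 32.8 to 83.2 CPM within the knockout libraries.

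Further genes of the pathway, taken from lists and not from the 46, were examined by the same test. A list of 32 other genes, called mitochondrial here, comprises further dehydrogenases and the oxidation of branched and odd chains. It also holds thioesterases and genes of fatty acid synthesis such as Acaca, Mcat and Oxsm, and not all of its products are mitochondrial. Of the 32, 11 fell (34.4%, against 5.70% of all genes) and 0 rose. In edgeR 21 were lower and 0 higher at an unadjusted p under 0.05 (65.6% lower, against 13.7% of all genes). DESeq2 called 13 lower and 0 higher, and limma voom 11 lower and 0 higher. The median was -0.25. Acadsb, the dehydrogenase of short branched chains, was at 197, 189.8, 195 and 193 CPM in knockout libraries 1 to 4 and at 271, 257, 259 and 262 CPM in wildtype libraries 1 to 4. It was 1.35-fold lower (edgeR adjusted p = 0.0013), with groups apart. Pcca and Pccb, the subunits of propionyl-CoA carboxylase, had log2 fold changes of -0.46 ± 0.091 and -0.41 ± 0.068 (adjusted p of 0.00866 and 0.00323), and Acad9, a dehydrogenase that also assembles complex I, had -0.36 ± 0.072 (adjusted p = 0.00885). The count of falling genes was 6 without knockout 4, 7 without wildtype 4, and 8 to 12 without any other library.

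Of 20 further genes of uptake and activation, 3 rose (15%, against 6.23% of all genes) and 3 fell (15%, against 5.70%). Acsbg1 and Acsl6, synthetases best known from brain, rose from low levels: Acsbg1 was at 3.39, 2.22, 3.02 and 3.68 CPM in knockout libraries 1 to 4 and at 0.603, 1.1, 0.524 and 0.789 CPM in wildtype libraries 1 to 4. Its log2 fold change was 2.03 ± 0.28 (edgeR adjusted p = 0.00136), and that of Acsl6 was 1.52 ± 0.30 (adjusted p = 0.00774), with no overlap in either. Slc22a5, the carnitine transporter OCTN2 of the proximal tubule brush border, was 1.47-fold lower (adjusted p = 0.0146), at 162 to 225 CPM against 235 to 324 CPM. Acsf3, the mitochondrial malonyl-CoA synthetase, had -0.31 ± 0.072 (adjusted p = 0.0172), and lost its call without knockout 2 (adjusted p = 0.0569) or wildtype 3 (0.0536). The counts of falling genes ran from 1 (without knockout 2 or wildtype 3) to 4 (without knockout 1).

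Of 43 further peroxisomal genes, 5 fell (11.6%, against 5.70% of all genes) and 0 rose in edgeR. At an unadjusted edgeR p under 0.05, 11 were lower (25.6%, against 13.7% of all genes) and 1 higher. DESeq2 called 9 lower and 1 higher, and limma voom 5 lower and 0 higher. Pxmp2, a channel of the peroxisomal membrane, was 1.42-fold lower (edgeR adjusted p = 0.00293), and Agps, which makes ether lipids, 1.54-fold lower (adjusted p = 0.00887). Dao, the D-amino acid oxidase of the proximal tubule, had -0.42 ± 0.097 on the log2 scale (adjusted p = 0.0183) and lost its call without knockout 2 (adjusted p = 0.0571) or wildtype 3 (0.0508). Far1, which reduces fatty acyl-CoA to alcohols, had -0.36 ± 0.090 (adjusted p = 0.0257) and lost it without knockout 2, 3 or 4 or wildtype 2, 3 or 4 (adjusted p of 0.0501 to 0.0795). The count of falling genes was 2 without knockout 2 or wildtype 3, 3 without knockout 4 and 4 to 6 without any other library.

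Among 23 regulators of the pathway, 5 fell (21.7%, against 5.70%) and 0 rose in edgeR. At an unadjusted edgeR p under 0.05, 9 were lower (39.1%, against 13.7% of all genes) and 0 higher. DESeq2 called 5 lower and 0 higher, and limma voom 6 lower and 0 higher. Sirt3, the mitochondrial deacetylase, was at 59.7, 55.6, 66.8 and 63.04 CPM in knockout libraries 1 to 4 and at 77.7, 78.7, 86.2 and 73.03 CPM in wildtype libraries 1 to 4. It was 1.29-fold lower (edgeR adjusted p = 0.0117), with groups apart. The coactivators Ppargc1a and Ppargc1b had -0.36 ± 0.097 and -0.63 ± 0.16 on the log2 scale (adjusted p of 0.0335 and 0.025), and the nuclear receptor Nr1h3 had -0.31 ± 0.082 (adjusted p = 0.0317).

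Several of these calls were lost when a single library was left out, and the calls over all genes moved as well. Falling calls over all genes, 868 with all libraries, were 488 without knockout 2 and 517 without knockout 4. They were 576 without wildtype 3 and 963 without knockout 1. Ppargc1a lost its call without knockout 2, 3 or 4 or wildtype 1, 2 or 3 (adjusted p of 0.0534 to 0.0871), Ppargc1b without knockout 2, 3 or 4 or wildtype 3 (0.0578 to 0.0625), and Nr1h3 without knockout 1, 2 or 4 or wildtype 1, 3 or 4 (0.0582 to 0.0911). The count of falling regulators was 1 without knockout 2, knockout 4 or wildtype 3, 2 without wildtype 1, 3 without knockout 3, wildtype 2 or wildtype 4, and 4 without knockout 1. Ppara itself, the receptor PPAR alpha, was at 43.02, 21.5, 37.7 and 23.1 CPM in knockout libraries 1 to 4 and at 26.3, 45.2, 51.3 and 44.3 CPM in wildtype libraries 1 to 4. Knockout 2 and 4 and wildtype 1 were low, the groups overlapped, and the log2 fold change was -0.41 ± 0.28 (edgeR adjusted p = 0.394).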

How the data were processed

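RNA-seq of whole kidneys gave 8 libraries, 4 per group. The authors deposited raw read counts per gene. STAR, HTSeq and edgeR were used with build mm9, per the submitters' processing notes; versions and settings: not given in the sources used here. Counting ignored strand, as the deposited tables are named, so genes and antisense partners cannot be separated. Reads with more than 1 alignment stayed outside the gene counts. Symbols matched 32860 of 37583 identifiers.

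Genes passed filterByExpr and were scaled by TMM. The test was edgeR's quasi-likelihood F test (edgeR 4.0.16 under R 4.3.3, robust fit without covariates), two-sided, and p-values were adjusted by Benjamini-Hochberg over the 15228 genes tested. CPM means counts scaled to library size with TMM factors. The script was tested on simulated data for this comparison, with 15228 genes: it recovered 44% of 50 genes at 1.5-fold, 68% at 2-fold, 94% at 4-fold and 98% at 8-fold, and 9 calls (5.59%) were false.

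The genes and lists were chosen with earlier results of these data known. Named genes are all 46, 8 of the 10 ketone genes (the others are not reported here), and up to 4 of each further list by smallest adjusted p; Ppara was named after its values were seen. Exon lengths come from GENCODE M21 and promoter windows from RefSeq for GRCm38.p6. Other settings were other scalings, DESeq2 1.42.0, limma voom (limma 3.58.1), other filters (none, or 1 CPM in 4 libraries), thresholds of 0.01 and 0.10, a replicate block, a clock-adjusted fit and libraries left out. Same-group libraries were distinct (chi-square over degrees of freedom between 9.04 and 22.9).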

Additional observations from a re-analysis of the deposited data

Results flagged for a closer look

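In 6 of 96 groups of 4 libraries (the 46 genes, the clock score and the proximal tubule score, under each label), 1 library lay far from the other 3, by a gap that took up most of the whole range (Dixon's ratio at the 95% level). Chance gives about 1 in 20. The gap was 0.83 of the range in Slc27a2, with wildtype 3 highest. It was 0.864 in Crat, 0.8416 in Acadvl and 0.8513 in Decr1, each with knockout 1 lowest. It was 0.8745 in Hadhb, with wildtype 1 highest, and 0.8719 in Acox3, with knockout 3 highest.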

How the results depend on the processing

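Over all alternatives, 78 named genes gave 1638 values, of which 1465 kept their side of the threshold, 137 lost a call and 36 gained one. No gene changed sign while passing in either fit, and 15 genes that passed in no setting changed sign in at least 1. Of the 8 genes called among the 46, Acad10, Echs1 and Plin2 kept the call without any 1 library. The counts that moved by over 1.5 times follow. With DESeq2, 8 of the 46, 2 peroxisomal, 4 fasting response, 1 further peroxisomal genes rose and 8 of the 46, 2 uptake and activation, 5 mitochondrial, 1 peroxisomal, 9 further peroxisomal genes fell. With the clock score in the fit, 1 of the 46, 0 uptake and activation, 0 fasting response, 1 further uptake genes rose and 0 uptake and activation, 3 ketone, 0 further uptake, 2 further mitochondrial, 2 further peroxisomal, 0 regulator, 0 lipid droplet genes fell. Medians in that fit were farther below 0 for the ketone (-0.51, against -0.46) and further mitochondrial genes (-0.27, against -0.25), and calls over all genes dropped too, to 519 higher and 249 lower. With library totals only, 8 of the 46, 3 peroxisomal, 2 further peroxisomal genes rose and 0 uptake and activation, 1 further uptake, 7 further mitochondrial, 3 further peroxisomal, 1 regulator genes fell. With no filter on low counts, 1 uptake and activation, 2 peroxisomal, 1 fasting response genes rose. With a threshold of 0.01, 0 of the 46, 0 uptake and activation, 0 peroxisomal, 0 fasting response genes rose and 0 uptake and activation, 0 further uptake, 5 further mitochondrial, 2 further peroxisomal, 0 regulator genes fell. With a threshold of 0.10, 2 peroxisomal, 1 further peroxisomal genes rose and 8 of the 46, 2 uptake and activation, 5 mitochondrial, 1 peroxisomal, 5 further uptake, 17 further mitochondrial, 9 further peroxisomal genes fell. With upper quartile factors, 2 peroxisomal, 1 further peroxisomal genes rose. With knockout 1 and 4 left out, 1 uptake and activation, 2 peroxisomal, 4 fasting response genes rose and 1 of the 46, 0 uptake and activation, 1 mitochondrial, 1 further uptake, 4 further mitochondrial, 3 further peroxisomal, 1 regulator, 0 lipid droplet genes fell. With knockout 2 and wildtype 1 left out, chosen after seeing the data for their fat markers, 0 of the 46, 0 uptake and activation, 0 peroxisomal, 0 fasting response, 1 further uptake genes rose and 0 uptake and activation, 7 further mitochondrial, 2 further peroxisomal, 0 regulator, 0 lipid droplet genes fell. Over all genes that fit called 427 higher and 410 lower.

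With each library left out in turn, 1 to 8 of the 46, 0 to 2 uptake and activation, 0 to 3 peroxisomal, 1 to 3 fasting response genes rose and 2 to 6 of the 46, 0 to 2 uptake and activation, 0 to 1 peroxisomal, 1 to 4 further uptake, 6 to 12 further mitochondrial, 2 to 6 further peroxisomal, 1 to 4 regulator genes fell. Calls over all genes ran from 588 to 977 higher and from 488 to 963 lower in those fits. With the replicate number as a block, 1 of the 46, 0 uptake and activation, 0 peroxisomal, 1 fasting response genes rose and 0 uptake and activation, 7 further mitochondrial, 3 further peroxisomal, 3 regulator genes fell. Deviations of same-numbered libraries from their group means correlated at -0.215, -0.21, -0.0527 and 0.157, so the numbers were not taken to pair the libraries.

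The cause of these shifts was not tested, other than that a stricter threshold leaves fewer calls by construction. Depth limits the low genes, and Cpt1b (305 counts over all libraries), Fabp1 (1756) and Fabp3 (2111) rest on the fewest counts of the 46. On simulated data, 44% of 1.5-fold changes were recovered, so a gene that did not pass may still differ. The counts of a gene do not tell protein, flux or the cell type the RNA came from.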

Other observations

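Of 17 genes of lipid droplets and lipolysis outside the 46, 1 fell (5.88%, against 5.70% of all genes) and 0 rose (against 6.23%) in edgeR. At an unadjusted edgeR p under 0.05, 1 was lower (5.88%, against 13.7% of all genes). At that threshold 2 of the 17 were higher, as were 2048 of all 15228 genes. DESeq2 and limma voom each called 1 lower and 0 higher. Dgat2, which makes triglyceride at the droplet surface, was at 182, 185, 169 and 177 CPM in knockout libraries 1 to 4 and at 245, 219.6, 258 and 210.00 CPM in wildtype libraries 1 to 4. The groups were apart, and it was 1.31-fold lower (-0.39 ± 0.079 on the log2 scale, edgeR adjusted p = 0.00999). Dgat1, the other enzyme of this step, had 0.28 ± 0.12 (adjusted p = 0.174), the droplet coat protein Plin5 0.45 ± 0.20 (adjusted p = 0.183) and the lipase inhibitor Hilpda 0.40 ± 0.19 (adjusted p = 0.192). None of these 3 passed, and all had values above 0.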
